A study of Mus musculus with 15 samples.

Results

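Endothelial marker genes are 33 genes whose products build or mark the inner lining of blood and lymph vessels, and their levels were followed array by array in 5 sorted populations of the mouse mammary gland. A member was represented by the probe set that the annotation assigned to its symbol and to no other, and where several did, by the brightest of them on average over 15 arrays. All 33 members were found this way, on 59 probe sets, among 18193 genes with a probe set of their own, and 20 members rested on 1 probe set. Affymetrix Mouse Genome 430 2.0 arrays were hybridised with amplified RNA of sorted cells, with 3 arrays for each population, and all mice were C57BL/6 females. Lin-YFP+ cells were sorted from Wap-Cre;R26Y females, and those of midgestation are called alveolar luminal cells (ALs) and those of virgins alveolar luminal stem/progenitor cells (ALPs). Wap-Cre is a transgene in which the promoter of whey acidic protein, a milk protein, drives Cre, and R26Y is a conditional reporter that stays on in a cell and its descendants once Cre has acted. The reference sorts came from wildtype adult virgin females, namely the basal fraction enriched in mammary stem cells (MaSCs, Lin-CD24+CD29hi), luminal progenitors (LPs, Lin-CD24hiCD29+CD61+) and mature luminal cells (MLs, Lin-CD24hiCD29+CD61-), each taken from the same 3 suspensions. Lin stands for antibodies to CD31, CD45 and TER119, which remove endothelial, blood and red cells, and CD31 is the product of the member Pecam1. No gate on CD24, CD29 or CD61 is stated for the marked sorts, so genotype and gate cannot be told apart between marked and wildtype cells, nor can pregnancy in ALs. It is not stated if each marked replicate was its own mouse, so p-values measure the spread between these arrays only.

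Endothelial cells line every vessel and are held together by adherens and tight junctions. They respond to vascular endothelial growth factor (VEGF) and to angiopoietins, store von Willebrand factor and P-selectin in granules, and display selectins and adhesion molecules that slow passing leukocytes. In the mammary gland a capillary bed surrounds the ducts and alveoli and expands in pregnancy. Several of these genes are also used by other cells: hematopoietic stem cells and fibroblast-like stromal cells carry CD34, megakaryocytes make von Willebrand factor, and the transcription factors Tal1 and Lmo2 work in blood cell precursors.

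Many endothelial genes are controlled by transcription factors of the ETS family, which bind a GGAA core, so the bases before the transcription start are shown for members that the results below turn on. The RefSeq table used here (GRCm38.p6) held 22 promoters of 17 members, and 16 members had no entry in it. Each line gives the 250 bases before the start, 5′ to 3′ on the gene's strand, and capitals mark the letters AGGAAG or their reverse complement CTTCCT. Selp (P-selectin, chr1:164115014-164115263, plus strand), Apold1 (chr6:134981751-134982000, plus strand), Emcn (endomucin, chr3:137340828-137341077, plus strand) and Cldn5 (claudin 5, chr16:18776597-18776846, plus strand) were higher in each marked array than in any wildtype array. Cd34 (chr1:194938571-194938820, plus strand) and Tek (chr4:94739039-94739288, plus strand) were high in LPs too.
Selp: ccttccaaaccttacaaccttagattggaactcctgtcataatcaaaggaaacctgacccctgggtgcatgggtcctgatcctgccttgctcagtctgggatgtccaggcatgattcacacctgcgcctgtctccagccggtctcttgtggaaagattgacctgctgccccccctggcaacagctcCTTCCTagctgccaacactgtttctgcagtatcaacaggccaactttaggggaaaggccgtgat
Apold1: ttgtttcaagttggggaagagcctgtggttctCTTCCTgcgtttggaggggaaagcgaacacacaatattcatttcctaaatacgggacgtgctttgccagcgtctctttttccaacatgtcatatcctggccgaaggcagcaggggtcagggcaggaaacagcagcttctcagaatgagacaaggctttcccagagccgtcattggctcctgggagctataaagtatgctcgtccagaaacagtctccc
Emcn: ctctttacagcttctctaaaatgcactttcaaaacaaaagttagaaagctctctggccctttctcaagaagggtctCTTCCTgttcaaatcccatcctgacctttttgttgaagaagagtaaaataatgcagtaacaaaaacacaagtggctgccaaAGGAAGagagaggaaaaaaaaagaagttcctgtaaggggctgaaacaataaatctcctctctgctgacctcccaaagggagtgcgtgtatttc
Cldn5: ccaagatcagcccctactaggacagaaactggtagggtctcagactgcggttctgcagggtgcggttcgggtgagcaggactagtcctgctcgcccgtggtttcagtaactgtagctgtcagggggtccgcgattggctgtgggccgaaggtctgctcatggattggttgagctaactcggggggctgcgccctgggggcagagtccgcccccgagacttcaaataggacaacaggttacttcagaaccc
Cd34: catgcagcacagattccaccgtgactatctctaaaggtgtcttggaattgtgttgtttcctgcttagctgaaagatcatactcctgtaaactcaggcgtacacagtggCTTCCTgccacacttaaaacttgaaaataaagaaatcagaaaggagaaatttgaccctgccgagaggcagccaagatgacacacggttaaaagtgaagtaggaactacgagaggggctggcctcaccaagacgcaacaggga
Tek: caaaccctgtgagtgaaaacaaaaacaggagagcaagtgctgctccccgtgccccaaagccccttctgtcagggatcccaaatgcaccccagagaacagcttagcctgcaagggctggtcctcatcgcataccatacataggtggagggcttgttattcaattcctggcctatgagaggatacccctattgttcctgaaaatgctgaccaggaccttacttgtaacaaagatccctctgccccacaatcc
Searched on both strands, these 6 letters stood in 13 of 22 member promoters (59.1%), which belong to 12 members, and in 9686 of all 32851 promoters of this length (29.5%). Among the promoters shown, Emcn held 2 matches, Selp, Apold1 and Cd34 held 1 each, and Cldn5 and Tek held none. The GATA motif AGATAA stood in 2 of 22 member promoters (9.09%) and in 9.99% of all promoters. Members with and without the letters occurred in both patterns of level described below, and a match is a description of the letters, not a binding site.

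The arrays of a population resembled each other across genes (Pearson r over genes, which are not independent replicates), with r between 0.975 and 0.993 within MaSCs, LPs, MLs and ALs and between 0.946 and 0.986 within ALPs. ALP replicate 3 stood apart from its group and had the highest median intensity of all arrays, at 209.9 against 136.8 to 180.2 in the others. For the members, counts of calls, medians and named folds of the ALP comparisons are therefore given with and without it. The mean of log2(intensity + 16) over 8 mammary epithelial markers was high in every array, although the basal keratin Krt5 read only 62.8 to 76.7 in LPs. Over these markers, among them Epcam and keratins, the mean ran from 12.67 to 12.86 in ALs, 12.37 to 12.87 in ALPs, 12.34 to 12.97 in MaSCs, 11.95 to 12.03 in LPs and 11.67 to 12.25 in MLs.

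As a group, the 33 members were highest in ALPs, intermediate in ALs and lowest in the wildtype sorts. The mean of log2(intensity + 16) over the members was 7.86, 8.09 and 8.17 in the 3 AL arrays, and 8.44, 9.14 and 11.17 in the 3 ALP arrays. It was 6.31, 6.22 and 6.20 in MaSCs, 6.44, 6.54 and 6.72 in LPs and 5.98, 5.96 and 5.96 in MLs. Every marked array thus lay above every wildtype array, and ALP replicate 3 lay well above the other ALP arrays. The mean over all 18193 genes ranged only from 8.62 to 9.03 in the same arrays. In a sorted population, more cells of a type and more RNA per cell cannot be told apart.

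**Figure D1:**
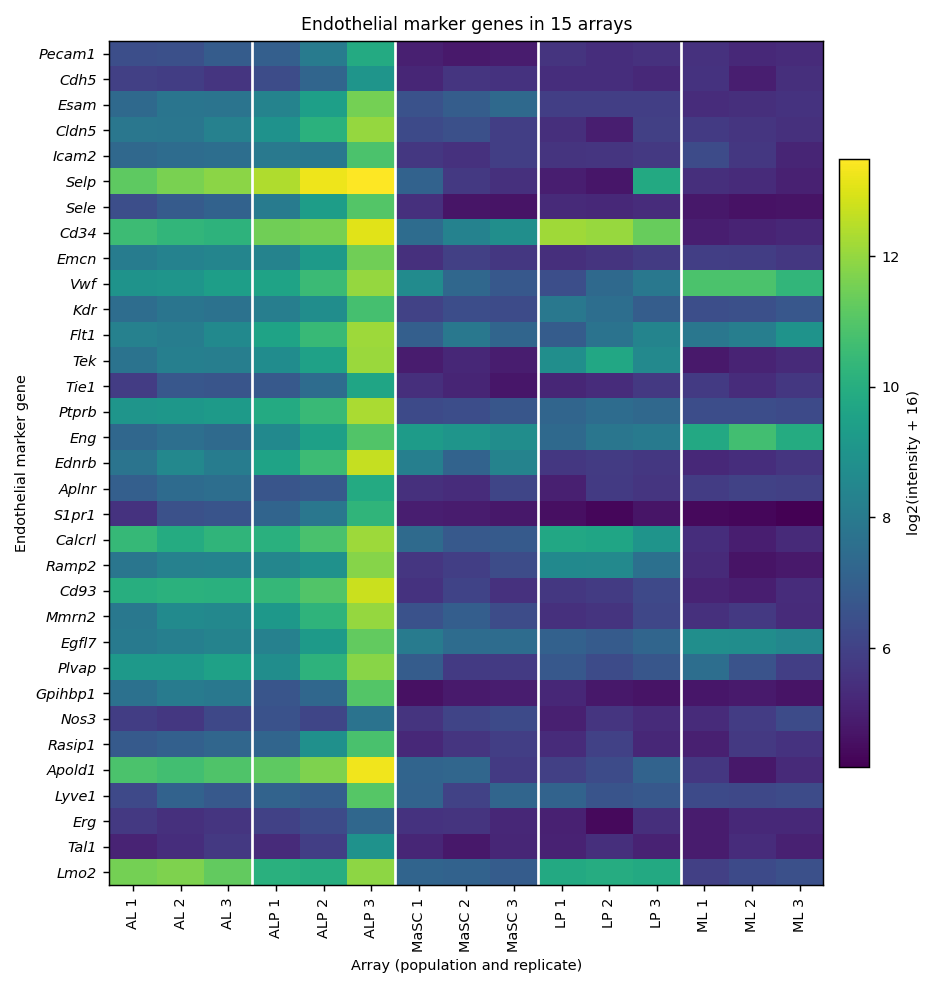
Heatmap of log2(intensity + 16) of the 33 endothelial marker genes (rows, by role) in 15 arrays (columns, 3 replicates each of AL, ALP, MaSC, LP and ML). ALP replicate 3 is the brightest array in every row, and Cd34, Tek, Calcrl, Ramp2 and Lmo2 are also bright in LP, while Vwf and Eng are also bright in ML. Colours compare arrays within a row, since probe sets differ in brightness.

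In 19 of 33 members all 6 marked arrays lay above all 9 wildtype arrays, which held for 0.857% of all genes. The count was 19 or 20 when any array was left out. These members were Cd93, Selp, Sele, Apold1, Emcn, Cldn5, Cdh5, Pecam1, Tie1, Ptprb, Plvap, Icam2, Mmrn2, Calcrl, Aplnr, S1pr1, Rasip1, Gpihbp1 and Lmo2. Without the virgin marked cells, the same 19 members had their 3 AL arrays above all wildtype arrays, against 11.7% of all genes. In ALP replicates 1 and 2 alone, 24 members lay above all wildtype arrays, against 2.73% of all genes. The members that did not were Eng, Tek, Vwf, Egfl7, Cd34, Ramp2, Lyve1, Nos3 and Tal1. Lyve1, Nos3 and Tal1 were dim outside ALP replicate 3, and the other 6 had a wildtype sort with a level of its own.

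Of the junction genes, Pecam1, Cldn5 and Icam2 were higher in each marked array than in any wildtype array, Cdh5 only just so, and Esam overlapped between ALs and MaSCs. Pecam1, which encodes the CD31 that the sort selected against, had intensities of 70.5, 71.8 and 103 in ALs and 110.5, 250.04 and 928 in ALPs, against 12.6 to 15.9 in MaSCs, 26.5 to 32.2 in LPs and 22.3 to 29.4 in MLs. Its transcript was thus above all 9 wildtype arrays in each Lin-YFP+ array. Cdh5, the cadherin of endothelial adherens junctions, read 45.8, 42.5 and 33.1 in ALs and 66.0, 134 and 506 in ALPs, and its wildtype arrays lay between 15.2 and 32.99. The gap was small in ALs, where the lowest array (33.1) only just exceeded the highest wildtype one. Cldn5, the claudin of endothelial tight junctions, read 218, 214 and 293 in ALs and 469, 1092 and 4103 in ALPs, against 43.6 to 72.4 in MaSCs, 15.5 to 45.5 in LPs and 28.6 to 37.7 in MLs. Its marked arrays did not overlap the wildtype ones. Esam, an adhesion molecule of endothelial junctions and platelets, read 149, 205 and 202 in ALs and 309.8, 681 and 2985 in ALPs. MaSCs held some of it, at 76.0, 107 and 149.7, against 43.4 to 44.4 in LPs and 25.2 to 31.1 in MLs, so MaSCs and ALs overlapped. Icam2, a ligand of leukocyte integrins at endothelial junctions, read 144 to 169.8 in ALs, 229, 222 and 1821 in ALPs, and 19.3 to 64.2 over the wildtype arrays.

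Of the genes of leukocyte recruitment, the capillary surface and clotting, Selp, Sele and Emcn separated the marked from the wildtype arrays and Vwf did not. Selp, the P-selectin to which leukocytes first attach, had intensities of 2313, 3126 and 3762 in ALs and 5289, 9728 and 11476 in ALPs. The wildtype arrays read 120.3, 36.9 and 28.0 in MaSCs, 15.4, 11.0 and 901 in LPs and 17.0 to 27.8 in MLs. LP replicate 3 was the exception among the wildtype arrays, and it still lay below every marked array. Sele, the E-selectin that activated endothelium displays, read 69.8, 99.9 and 121 in ALs and 249, 644 and 2009 in ALPs, against 9.37 to 27.9 in MaSCs, 22.2 to 25.2 in LPs and 9.05 to 11.3 in MLs. Emcn, a sialomucin of capillary and venous endothelium, read 258, 304 and 325 in ALs and 307, 598 and 2795 in ALPs, while all 9 wildtype arrays lay between 27.1 and 45.6. ALP replicate 1 lay within the AL range for Emcn. Vwf, which encodes von Willebrand factor, behaved differently. It read 482, 506 and 652 in ALs, 749.5, 1441 and 4092 in ALPs, 391, 141 and 90.5 in MaSCs and 68.8, 148 and 225 in LPs. MLs were high, at 1837, 1855 and 1266, above both remaining wildtype sorts and above all AL arrays.

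**Figure D2:**
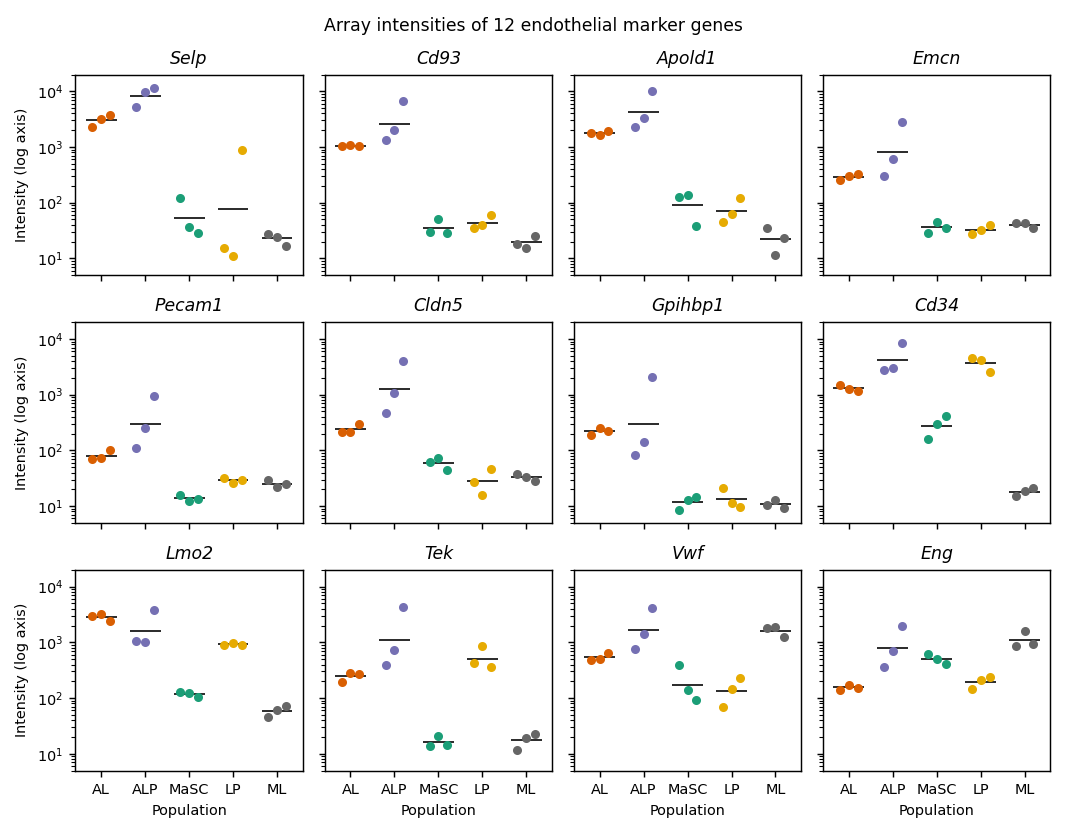
Intensity (log axis) of 12 endothelial marker genes in each array, by population, with points for the 3 replicates in order and a line at the mean on the log2(intensity + 16) scale. Selp, Cd93, Apold1, Emcn, Pecam1, Cldn5 and Gpihbp1 separate the marked sorts (AL, ALP) from the wildtype ones, whereas Cd34, Lmo2 and Tek are also high in LP, and Vwf and Eng in ML.

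The receptors for VEGF and angiopoietins were highest on average in ALPs but were not absent from wildtype cells. Kdr, the main signalling receptor for VEGF, read 165, 207 and 191 in ALs and 271, 417 and 1689 in ALPs, against 48.1 to 68.1 in MaSCs, 222, 169 and 105 in LPs and 69.9 to 88.8 in MLs. ALs and LPs overlapped for Kdr. Flt1, a high-affinity VEGF receptor that also acts as a decoy, read 289, 261 and 373 in ALs and 755, 1403 and 4439 in ALPs, against 104 to 314 over MaSCs and LPs and 221, 270.3 and 479 in MLs. Its AL arrays lay within the wildtype range, and its ALP arrays lay above it. Tek, the angiopoietin receptor Tie2, read 197, 279 and 268 in ALs and 398, 717 and 4382 in ALPs. It was at 13.6 to 20.9 in MaSCs, 425, 845 and 361 in LPs and 11.9 to 22.9 in MLs. Among wildtype cells Tek was thus high in LPs only, and LPs lay above all ALs. ALP replicates 1 and 2 lay within the LP range. Without ALP replicate 3 the log2 difference of Tek between ALPs and LPs was 0.08 (limma adjusted p = 0.941). Tie1, the orphan partner of Tek, read 41.3, 88.8 and 82.6 in ALs and 94.6, 162 and 794 in ALPs, and 10.7 to 38.5 over the wildtype arrays. Ptprb, the phosphatase VE-PTP that restrains Tek, read 513, 530.3 and 601 in ALs and 923, 1430.4 and 5057 in ALPs, against 61.0 to 85.4 in MaSCs, 134 to 159.7 in LPs and 62.2 to 67.7 in MLs. Unlike Tek, which it acts on, Ptprb did not reach the AL level in LPs.

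Among the other receptors, Eng and Ednrb had a wildtype sort of their own. Eng, the endoglin co-receptor for bone morphogenetic proteins, read 142, 175 and 154 in ALs and 367, 690.4 and 1954 in ALPs, against 617, 510.3 and 415 in MaSCs, 148, 214 and 237 in LPs and 866, 1597 and 943 in MLs. It was thus lower in ALs than in MaSCs or MLs, without overlap. Ednrb, an endothelin receptor, read 204, 355 and 256 in ALs and 751, 1491 and 6488 in ALPs, against 279, 126 and 306 in MaSCs, 35.3 to 39.8 in LPs and 22.6 to 32.6 in MLs. Aplnr, the apelin receptor of growing vessels, read 111, 159 and 173 in ALs and 82.8, 94.7 and 915 in ALPs, above the 15.99 to 53.9 of the wildtype arrays. Here ALP replicates 1 and 2 lay below all ALs. S1pr1, the receptor for sphingosine 1-phosphate that stabilises vessels, read 30.7, 72.9 and 82.0 in ALs and 129, 217 and 1225 in ALPs, and did not exceed 14.9 in any wildtype array. Calcrl and Ramp2 together form an adrenomedullin receptor and shared an LP level. Calcrl read 1359, 943 and 1206 in ALs and 1064, 1765 and 4415 in ALPs, against 153, 95.3 and 96.6 in MaSCs, 855, 799 and 493 in LPs and 15.4 to 26.5 in MLs. Ramp2 read 214, 293 and 299 in ALs and 335, 462 and 3559 in ALPs, against 33.8 to 64.5 in MaSCs, 374, 359 and 179 in LPs and 9.47 to 22.8 in MLs. Both were lowest in MLs, and Ramp2 did not separate ALs from LPs.

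Of the remaining surface and secreted proteins, Cd93, Apold1, Mmrn2 and Gpihbp1 followed the marked sorts closely. Cd93, a lectin-like receptor of endothelium and myeloid cells, read 1033, 1097 and 1060.4 in ALs and 1309, 2004 and 6812 in ALPs, against 29.0 to 50.4 in MaSCs, 35.7 to 59.6 in LPs and 15.6 to 25.4 in MLs. Mmrn2, a matrix protein that binds Cd93, read 223, 386 and 348 in ALs and 547, 1186 and 4092 in ALPs, and 24.1 to 108 over the wildtype arrays. This pair of binding partners was therefore higher in every marked array than in any wildtype one. Of the 5 probe sets of Cd93, 3 gave the same direction between ALs and LPs. Apold1, an endothelial gene induced by stress, read 1815, 1625 and 1915 in ALs and 2317, 3254 and 10031 in ALPs, against 128, 138 and 38.5 in MaSCs, 45.0, 63.8 and 124 in LPs and 11.7 to 35.3 in MLs. Gpihbp1, which holds lipoprotein lipase on the capillary wall, read 185, 252 and 224 in ALs and 82.8, 141 and 2054 in ALPs, and did not exceed 20.9 in any wildtype array. ALP replicates 1 and 2 lay below all ALs for Gpihbp1, whereas replicate 3 was the highest array. Plvap, which forms the diaphragms of fenestrated endothelium, read 576, 562 and 704 in ALs, 413, 1157 and 3611 in ALPs and 37.7 to 171 over the wildtype arrays. Rasip1, a regulator of vessel tube formation, read 95.4 to 136.7 in ALs, 134, 451 and 1796 in ALPs and 16.3 to 46.6 over the wildtype arrays. Both kept all marked arrays above all wildtype ones. Egfl7, a secreted endothelial factor, did not, and read 234 to 313 in ALs, 291, 601 and 2413 in ALPs, 161 to 250.3 in MaSCs, 98.5 to 134 in LPs and 344 to 421 in MLs. Lyve1, a hyaluronan receptor of lymphatic endothelium and of some macrophages, read 59.2 to 122 in ALs and 49.2 to 134 over the wildtype arrays. In ALPs it read 125, 109 and 2095, so only replicate 3 stood out. Nos3, the endothelial nitric oxide synthase, read 36.2 to 58.4 in ALs, 76.7, 53.1 and 194 in ALPs and 15.7 to 62.4 over the wildtype arrays.

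The 3 transcriptional regulators did not move together. Erg, an ETS factor of endothelial identity, was dim, at 28.9 to 37.3 in ALs, 47.1, 63.9 and 142 in ALPs and 5.20 to 31.8 over the wildtype arrays. Tal1 was at 18.3 to 36.5 in ALs and 11.7 to 27.7 over the wildtype arrays, and in ALPs it read 23.8, 43.5 and 472. Lmo2, which bridges Tal1 to other factors, read 3006, 3258 and 2444 in ALs and 1079.8, 995 and 3792 in ALPs, against 129, 121 and 104 in MaSCs, 901, 976 and 906 in LPs and 45.4 to 72.2 in MLs. Lmo2 was higher in ALs than in ALP replicates 1 and 2, and Erg was lower, so the regulators did not share a direction between the marked sorts. Cd34, a sialomucin of capillary endothelium, blood stem cells and stromal cells, read 1494, 1256 and 1148 in ALs and 2817, 3052 and 8521 in ALPs. It was 163, 299.8 and 422 in MaSCs, 4509.6, 4183 and 2545 in LPs and 14.9 to 20.9 in MLs.

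The first comparison asked how marked cells of pregnancy differ from virgin luminal progenitors. Between ALs and LPs, 17 of 33 members were higher and 1 was lower in limma's moderated test at an adjusted p under 0.05, against 15.4% and 17.3% of all genes. The median log2 difference was 1.53 over the members and -0.01 over all genes. Selp was 32.9-fold higher in ALs (log2 difference 5.04, SE 0.97, adjusted p = 0.00124), Apold1 20.4-fold (4.35, SE 0.51, adjusted p = 2.6e-05) and Cd93 17.995-fold (4.17, SE 0.44, adjusted p = 9.67e-06). Plvap, Emcn, Mmrn2 and Cldn5 were 6.60-, 6.404-, 6.15- and 5.83-fold higher (adjusted p of 0.00337, 0.00154, 0.00147 and 0.0025), and Lmo2 was 3.07-fold higher (adjusted p = 0.00453). The other members that rose were Sele, Ednrb, Vwf, Esam, Ptprb, Icam2, Aplnr, S1pr1 and Gpihbp1. Cd34 fell 2.79-fold in ALs (log2 difference -1.48, SE 0.40, adjusted p = 0.0105). All fold changes are on the log2(intensity + 16) scale, which understates changes of dim genes, and the spread is shared by all 15 arrays. That spread includes ALP replicate 3: without this array, 22 members were higher and 2 were lower in ALs, against 18% and 19.4% of all genes. Pecam1, picked here after its values were seen, was 2.13-fold higher in ALs with an adjusted p of 0.104, and of 0.0022 without ALP replicate 3.

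Against MLs, 19 members were higher in ALs and 2 were lower, with 20.4% and 18.4% of all genes called in these directions. The median log2 difference was 2.09 over the members and 0.02 over all genes. Selp was 77.9-fold higher (log2 difference 6.28, SE 0.97, adjusted p = 0.000139), Apold1 47.1-fold (5.56, SE 0.51, adjusted p = 1.43e-06), Lmo2 38.7-fold (5.28, SE 0.38, adjusted p = 1.5e-07) and Cd34 38.4-fold (5.26, SE 0.40, adjusted p = 2.34e-07). Calcrl was 31.4-fold, Cd93 30.3-fold, Mmrn2 7.22-fold and Ptprb 6.91-fold higher (adjusted p of 4.8e-07, 1e-06, 0.000518 and 0.000134). Eng fell 6.42-fold in ALs (log2 difference -2.68, SE 0.45, adjusted p = 0.000253). Vwf fell 2.95-fold (log2 difference -1.56, SE 0.57, adjusted p = 0.044), a call that was lost on leaving out any AL or ML array, MaSC replicate 2, LP replicate 2 or ALP replicate 2, with an adjusted p of up to 0.114 (without ML replicate 2). It was also lost with the replicate number as a block (adjusted p = 0.0609) and with nothing added before log2 (adjusted p = 0.0509). Without ALP replicate 3, 24 members were higher and 2 lower, against 23.4% and 20% of all genes.

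The comparison of ALPs with LPs set the marked virgin cells beside the virgin progenitors of the luminal layer. Here 27 members were higher in ALPs, against 2.68% of all genes, while 2.2% of all genes were lower. All 33 differences were positive, with a median of 3.06 on the log2 scale over the members and 0.01 over all genes. Apold1 was 48.3-fold higher in ALPs (log2 difference 5.59, SE 0.51, adjusted p = 6.44e-05), Cd93 43.9-fold (5.46, SE 0.44, adjusted p = 5.11e-05), Ednrb 36.9-fold (5.21, SE 0.57, adjusted p = 0.000302) and Cldn5 29.7-fold (4.89, SE 0.54, adjusted p = 0.000322). Mmrn2 was 26.4-fold, Sele 17.9-fold, Emcn 17.0-fold and Ptprb 11.8-fold higher (adjusted p of 0.000305, 0.000686, 0.00108 and 0.000615). ALP replicate 3 raised each of these folds by over 1.5 times. Without it they were 31.4 for Apold1, 27.3 for Cd93, 20.3 for Ednrb, 16.7 for Cldn5, 15.4 for Mmrn2, 10.6 for Sele, 9.19 for Emcn and 7.22 for Ptprb, and all 8 kept their calls. With all arrays, Tek, Cd34, Ramp2, Lyve1, Lmo2 and Tal1 did not pass the test. Without ALP replicate 3, 24 members were still higher, all of them among the 27, against 1.62% of all genes. The median log2 difference was then 2.07 over the members, and 32 differences were positive, Cd34 being the exception (-0.31). Without LP replicate 2 the count was 17, and fitting ALPs and LPs alone it was 2, with Ednrb, Cldn5, Mmrn2, Sele, Emcn and Ptprb no longer called (adjusted p of 0.0825 to 0.104). Kdr, Calcrl and Nos3 lost their calls in the 5-population fit without ALP replicate 3 (limma adjusted p of 0.0695, 0.112 and 0.0921). Under Student's t-test, the test that the methods name, 22 members had an unadjusted p under 0.05 and 0 passed after Benjamini-Hochberg adjustment. Over all 18193 genes that test gave 2800 at an unadjusted p under 0.05 and 0 after adjustment, where limma called 27 members and 888 genes (4.88%).

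**Figure D3:**
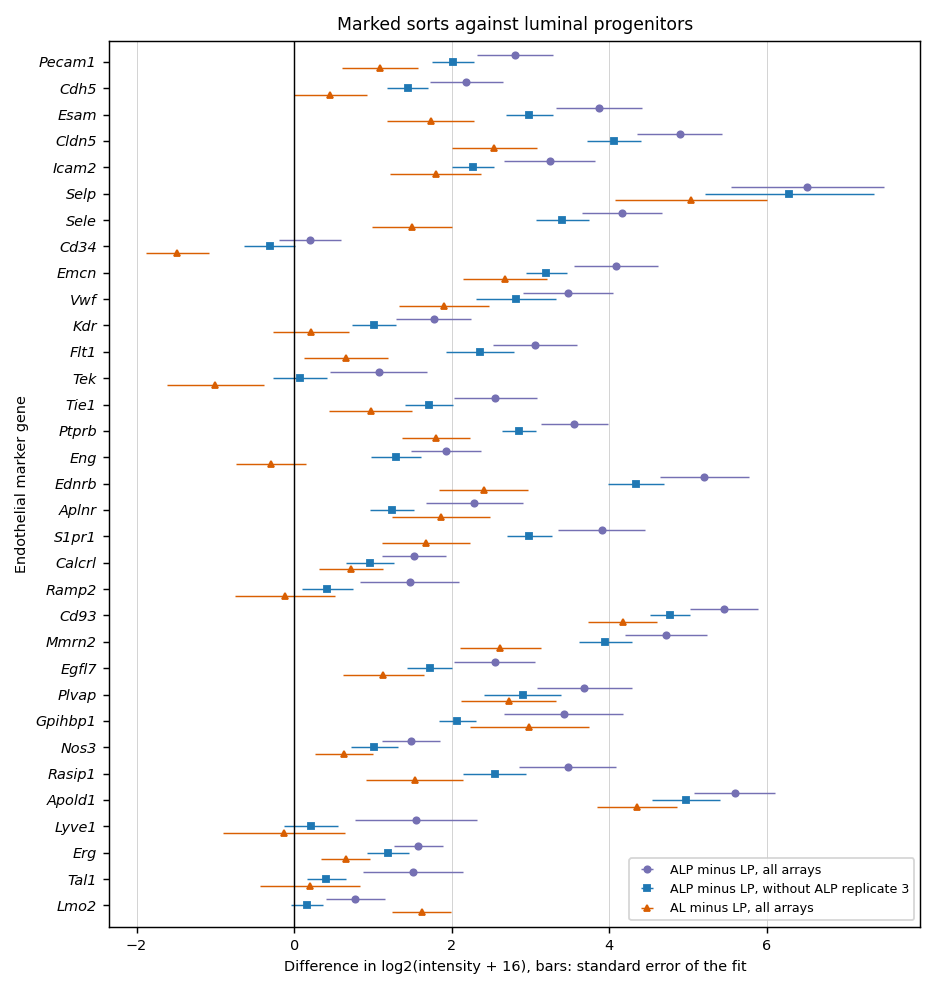
Differences in log2(intensity + 16) from LP for each of the 33 members (rows, by role), with standard errors of the limma fit. Circles show ALP and squares ALP without replicate 3, most of which stay right of 0 (24 members pass the test), and triangles show AL, where 17 members are higher and Cd34 is lower.

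Between pregnancy and the virgin state, the marked sorts differed in the direction of the virgin cells. In limma's test 0 members were higher in ALs than in ALPs and 18 were lower, against 13.2% and 15.7% of all genes. At an unadjusted p under 0.05 the counts were 1 (Lmo2) and 26. Student's t-test called 0 members after adjustment and 6 without it. Over all 18193 genes that test called 2356 after adjustment and 5757 without it. The median log2 difference was -1.58 over the members and -0.03 over all genes. Ednrb was 6.97-fold lower in ALs (log2 difference -2.80, SE 0.57, adjusted p = 0.00208), Sele 6.37-fold (-2.67, SE 0.51, adjusted p = 0.00137), Flt1 5.29-fold (-2.40, SE 0.54, adjusted p = 0.00412) and Cldn5 5.10-fold lower (-2.35, SE 0.54, adjusted p = 0.00499). Eng, Mmrn2, Ptprb and Cd34 were 4.69-, 4.30-, 3.38- and 3.21-fold lower (adjusted p of 0.0019, 0.0073, 0.00701 and 0.0057). All 8 kept their calls without ALP replicate 3, at smaller folds of 3.82 for Ednrb, 3.77 for Sele, 3.26 for Flt1, 2.87 for Cldn5, 3.01 for Eng, 2.51 for Mmrn2, 2.07 for Ptprb and 2.25 for Cd34, and the median log2 difference over the members was -0.80. The count was 11 without AL replicate 1 and 6 when ALs and ALPs were fitted alone. In 22 members all AL arrays lay below all ALP arrays, as in 22.5% of all genes. Rasip1 passed the test although AL replicate 3 (136.7) was above ALP replicate 1 (134). Without ALP replicate 3, 14 members stayed lower in ALs, and Lmo2 and Gpihbp1 were higher, with adjusted p of 0.000125 and 0.0091, against 15.5% of all genes higher and 13.9% lower. With all arrays neither Lmo2 (log2 difference 0.84, adjusted p = 0.113) nor Gpihbp1 (-0.44, adjusted p = 0.715) passed. Cd93, Tie1, Erg and Rasip1 were called only with that array included.

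Within the wildtype gland most members stayed dim, and 5 of them marked the LPs. Against MLs, 5 members were higher in LPs and 3 were lower, against 19.1% and 15.7% of all genes, and the median log2 difference of the members was 0.14 beside 0.03 over all genes. The share of members called was thus near that of all genes, and the members called were few and far apart in level. Cd34 was 107-fold higher in LPs (log2 difference 6.74, SE 0.40, adjusted p = 9.25e-08), Calcrl 19.0-fold (4.25, SE 0.40, adjusted p = 4.49e-06), Tek 15.6-fold (3.96, SE 0.62, adjusted p = 0.000233), Lmo2 12.6-fold (3.66, SE 0.38, adjusted p = 8.87e-06) and Ramp2 10.04-fold higher (3.33, SE 0.63, adjusted p = 0.00104). In the other direction Vwf was 11.0-fold lower in LPs (log2 difference -3.46, SE 0.57, adjusted p = 0.000371), Eng 5.23-fold (-2.39, SE 0.45, adjusted p = 0.000915) and Egfl7 3.09-fold lower (-1.63, SE 0.51, adjusted p = 0.0239). The Egfl7 call was lost without LP replicate 1 or 2 or ML replicate 1 or 2 (adjusted p of 0.0575 to 0.0744) and with the mean of its 4 probe sets (adjusted p = 0.0547). Without ALP replicate 3, 9 members were higher and 3 lower in LPs, against 21.3% and 17.8% of all genes.

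Between MaSCs and LPs the share of members called was no larger than that of all genes. In MaSCs, 2 members were higher and 5 were lower than in LPs, against 12% and 16.5% of all genes, with a median log2 difference of -0.04 both over the members and over all genes. The 5 lower members were those that were higher in LPs than in MLs. Tek was 16.3-fold lower in MaSCs (log2 difference -4.03, SE 0.62, adjusted p = 0.000278), Cd34 12.5-fold (-3.65, SE 0.40, adjusted p = 1.85e-05), Lmo2 7.05-fold (-2.82, SE 0.38, adjusted p = 9.71e-05), Calcrl 5.54-fold (-2.47, SE 0.40, adjusted p = 0.000463) and Ramp2 4.89-fold lower (-2.29, SE 0.63, adjusted p = 0.0142). Ramp2 missed the threshold without LP replicate 1 or 2 (adjusted p of 0.0536 and 0.0531). Ednrb was 4.49-fold higher in MaSCs (log2 difference 2.17, SE 0.57, adjusted p = 0.0104), on 1 of its 3 probe sets only, and the mean of all 3 gave a log2 difference of 0.57 (adjusted p = 0.315). Eng was 2.47-fold higher in MaSCs (log2 difference 1.30, SE 0.45, adjusted p = 0.0415), a call lost on leaving out any MaSC, LP or AL array or ML replicate 3 (adjusted p up to 0.139, without LP replicate 1). Without ALP replicate 3, 4 members were higher and 7 lower in MaSCs, against 13.9% and 18.6% of all genes.

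Fibroblast markers moved with these LP differences. The 10 genes of fibroblasts included Col1a1, a collagen chain, and Dcn, the matrix proteoglycan decorin. All 10 were higher in LPs than in MLs, with a median 57.8-fold difference, against 19.1% of all genes. In MaSCs 9 of these 10 genes were lower than in LPs, against 16.5% of all genes. Their summed intensity was 30936 to 43011 in ALs, 48483 to 95849 in ALPs, 8018 to 10951 in MaSCs, 37389 to 55520 in LPs and 1723 to 6291 in MLs. None of the 10 was at 0 in any array. In ALs against LPs, 3 of the 10 fibroblast genes were lower, against 17.3% of all genes. Cd34 fell there, and Tek arrays were lower in ALs without passing the test. Lmo2 went the other way (3.07-fold higher in ALs, limma adjusted p = 0.00453). Calcrl arrays of ALs also lay above those of LPs, and Ramp2 overlapped. Their part in the levels of Cd34, Tek, Calcrl, Ramp2 and Lmo2 was not tested.

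ALP replicate 3 was the highest of 15 arrays for 33 of 33 members, against 13% of all genes. Its fold over the mean of ALP replicates 1 and 2 ran from 1.60 (Selp) to 16.6 (Gpihbp1), with a median of 5.12, and reached 4-fold in 24 members, against 5.44% of all genes. After Gpihbp1, the fold was largest for Lyve1 (15.9), Tal1 (10.02), Aplnr (8.90), Ramp2 (8.73) and Tek (7.98). The members under 4-fold were Selp, Apold1, Eng, Vwf, Erg, Cd34, Calcrl, Nos3 and Lmo2. So the array differed from its group by an unequal factor among endothelial genes, least in Selp and most in Gpihbp1. Against ALP replicate 2 alone it reached 4-fold in 12 members. After median centring, which evens out the overall brightness of arrays, 19 members reached 4-fold and the array was highest for 31. With the mean of all probe sets these counts were 20 and 33. Replicates 1 and 2 also differed: replicate 2 was above replicate 1 for 29 members (all but Icam2, Lyve1, Nos3 and Lmo2), against 55.1% of all genes, and 23 members were at least 1.5-fold higher in it.

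Markers of blood and mural cells moved with this array as well. Of 10 leukocyte markers 9 were at least 4-fold higher in ALP replicate 3, with a median fold of 39.0, and of 9 macrophage markers 8 were, with a median of 45.2. Ptprc, which encodes the CD45 that the sort also selected against, read 67.2 to 93.6 in ALs, 43.3, 58.8 and 2795 in ALPs, and 11.2 to 27.4 over the wildtype arrays. The summed intensity of the leukocyte list was 9760 to 11666 in ALs, 5756, 6567 and 65270 in ALPs, 3325 to 4951 in MaSCs, 2177 to 3409 in LPs and 6783 to 7408 in MLs. Lcp1, the brightest gene of this list, made up most of the sum in ALs and MLs. It read 6492 to 7103 in ALs, 3464, 3740 and 7034 in ALPs and 6227 to 6934 in MLs. For macrophage markers the sum was 3572 to 5578 in ALs, 2595, 4222 and 67516 in ALPs, 1290 to 2007 in MaSCs, 1739 to 2602 in LPs and 972 to 1030.4 in MLs. Leukocyte and macrophage sums were thus highest in ALP replicate 3, and in ALs they also lay above all wildtype arrays. The endothelial sum was 15836 to 17864 in ALs and 22214, 36751 and 111656 in ALPs, against 2812 to 8869 over the wildtype arrays. Mural cell markers, those of pericytes and smooth muscle around vessels, reached 4-fold in ALP replicate 3 for 4 of 8 genes (median fold 3.71), with sums of 7269 to 8436 in ALs, 11225, 11916 and 25554 in ALPs, 7326 to 9769 in MaSCs, 7766 to 8680 in LPs and 6169 to 6952 in MLs. Platelet markers did so for 2 of 6 (median 2.90), fibroblast markers for 1 of 10 (2.01), adipocyte markers for 1 of 4 (1.87), erythroid markers for 0 of 5 (0.901) and epithelial markers for 1 of 8 (0.941). No gene of these lists was at 0 in any array. The part of other cell types in the endothelial levels was not tested.

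**Figure D4:**
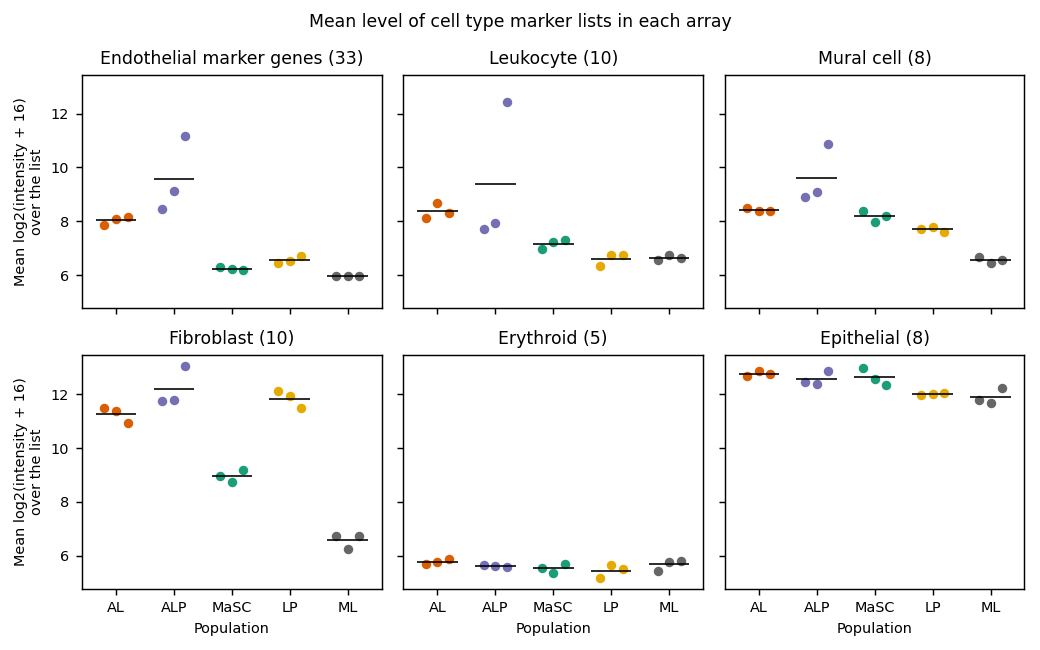
Mean of log2(intensity + 16) over each marker list in every array, by population, with points for the 3 replicates in order and a line at their mean. Endothelial and leukocyte means are each higher in all AL and ALP arrays than in any wildtype array. Leukocyte genes jump in ALP replicate 3 (12.4 against 7.73 and 7.95 in the other ALP arrays). Fibroblast genes are high in AL, ALP and LP. Erythroid means lie between 5.17 and 5.86 and epithelial means between 11.67 and 12.97. The epithelial list mixes genes that move in opposite directions, with 2 of 8 higher and 6 lower in MaSC than in LP (12% and 16.5% of all genes).

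**Figure D5:**
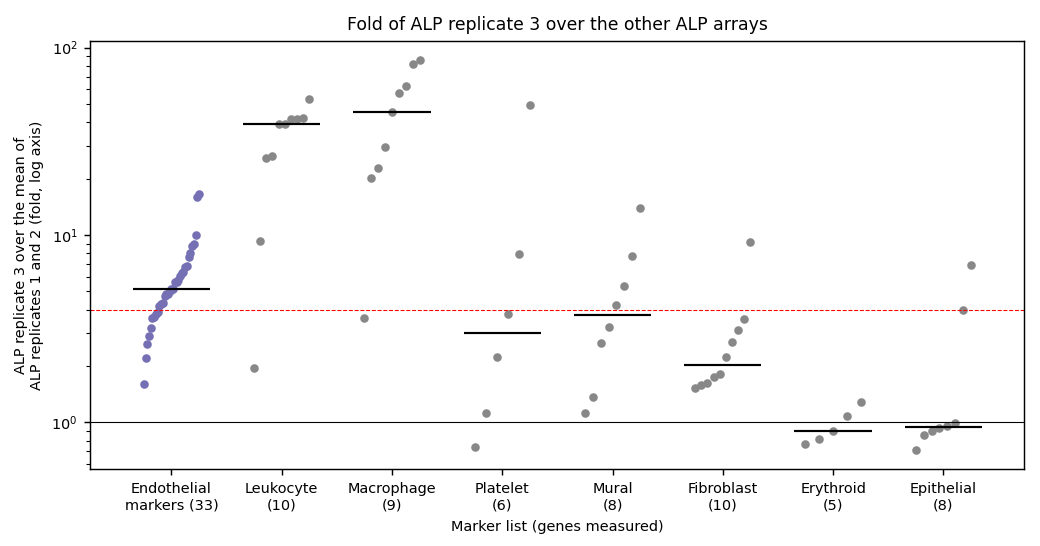
Fold of ALP replicate 3 over the mean of ALP replicates 1 and 2 for each gene (log axis, on the log2(intensity + 16) scale), by marker list, with genes sorted within a list, a thick line at the median, a thin line at 1 and a dashed line at 4. The endothelial median is 5.12, below the leukocyte (39.0) and macrophage (45.2) medians and above the erythroid (0.901) and epithelial (0.941) ones.

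The lists were also compared without ALP replicate 3. In the remaining ALP arrays, 24 of 33 endothelial members were higher than in LPs, as were 5 of 10 leukocyte, 3 of 9 macrophage and 3 of 8 mural markers, with 1.62% of all genes called higher. In ALs against LPs the same fit called 22 endothelial members, 10 of 10 leukocyte and 8 of 9 macrophage markers higher, with 18% of all genes called higher. It called 2 endothelial members and 1 macrophage marker lower, with 19.4% of all genes called lower. With all 15 arrays 2 of 10 leukocyte and 3 of 9 macrophage markers were called higher, against 15.4% of all genes. The median difference of 3.43-fold for leukocyte markers was the same in both fits. Of 8 mural genes 3 were called higher and 1 lower in ALs than in LPs without ALP replicate 3, and 1 was higher with it.

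Of 27 measured ligands and partners of the members' receptors, 1 was higher in ALPs than in LPs (2.68% of all genes). Without ALP replicate 3 the count was also 1 (1.62% of all genes). In ALs 5 were higher and 6 lower than in LPs (15.4% and 17.3% of all genes). In ALP replicate 3, 4 reached 4-fold (5.44% of all genes), and the median fold over the list was 1.32. Vegfa, the ligand of Kdr and Flt1, read 1539 to 1976 in ALs, 1738.5 to 2635 in ALPs, 2290 to 4167 in MaSCs, 1395 to 1791 in LPs and 1348 to 1945.5 in MLs. Apln, the ligand of Aplnr, read 201, 758 and 276 in ALs, against 27.3, 30.9 and 90.1 in ALPs and 25.4 to 49.7 over the wildtype arrays. It rose against ALPs, LPs and MLs alike (log2 differences 2.61, 2.95 and 2.98, limma adjusted p of 0.000364, 0.000111 and 5.79e-05). Adm, whose product binds the receptor of Calcrl and Ramp2, was bright in every array, at 3005 to 3436 in ALs, 3263 to 5439 in ALPs and 2016 to 3910 over the wildtype arrays. Selplg, the leukocyte ligand of P-selectin, read 64.0 to 75.6 in ALs, 45.1, 46.6 and 1708 in ALPs and 35.9 to 65.7 over the wildtype arrays. It followed the leukocyte markers in ALP replicate 3.

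Of 21 genes of endothelial transcription and Notch signalling, 6 were higher in ALPs than in LPs, against 2.68% of all genes. The count was also 6 without ALP replicate 3, against 1.62% of all genes. In ALs 3 were higher and 2 lower than in LPs with all arrays, no larger a share than the 15.4% and 17.3% of all genes. Without ALP replicate 3 these counts were 8 and 2, against 18% and 19.4% of all genes. Gata2, which acts with Tal1 and Lmo2 in blood and vessel precursors, read 92.1 to 108.5 in ALs, 74.6, 125 and 616 in ALPs and 28.8 to 52.8 over the wildtype arrays. Ldb1, the adaptor that binds Lmo2, read 1290 to 1496 in ALs, 632 to 1207 in ALPs and 683 to 1220.4 over the wildtype arrays. Lyl1, a relative of Tal1, was dim, at 36.0 to 49.3 in ALs, 28.4, 34.7 and 123 in ALPs and 25.7 to 56.7 over the wildtype arrays. Of 21 further endothelial genes, 11 were higher in ALPs than in LPs (8 without ALP replicate 3), against 2.68% of all genes (1.62%). In ALs 6 were higher and 4 lower than in LPs, against 15.4% and 17.3%. Without ALP replicate 3 the AL counts were 8 and 5, against 18% and 19.4%. Cav1, a coat protein of caveolae, is abundant in endothelium and was bright in all sorts, at 1098 to 1207 in ALs, 3407 to 6682 in ALPs, 6291 to 7764 in MaSCs, 1892 to 2734 in LPs and 6099 to 6828 in MLs.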

How the data were processed

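The deposited table holds 1 linear intensity for each probe set on each of 15 arrays, after normalisation in dChip by the authors. Neither the dChip version and expression model nor scan batches are stated in the sources read. RNA had been amplified with the NuGEN Ovation V2 system before hybridisation, so differences are those of amplified RNA. Of 45101 probe sets, 64 were controls, 34945 carried 1 symbol, 932 several and 9160 none, and 659 values were 0. The brightest probe set of each symbol was used, which gave 18193 genes.

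After adding 16 and taking log2, limma 3.58.1 under R 4.3.3 fitted 1 mean per population over the 15 arrays (lmFit, then eBayes with a trend), with no filter on dim genes. Tests were two-sided, p-values were adjusted over all 18193 genes by Benjamini and Hochberg, and genes under 0.05 were called. SE is that of the fitted difference. "Without ALP replicate 3" is the same fit on the other arrays. The fit was tried on simulated data with the same spread in every array and effects in ALs only. That simulation holds no array like ALP replicate 3, so it does not cover the ALP comparisons. Folds and adjusted p are given for at most 8 called members by moderated t in each direction, and non-members from fixed lists for their level or because they bind a member; Ptprc was added for the sort. Members and lists were chosen with earlier results of these data known. Array number limits the precision. Alternatives were another floor, a brightness filter (above the array median in at least 3 arrays), quantile normalisation, median centring, the mean of all probe sets, array weights, 2 populations only, a replicate block, Student's t-test and leaving out each array. Scanner files and probe-level background were not analysed here.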

Additional observations from a re-analysis of the deposited data

How the results depend on the processing

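Most differences of named members kept their side of the threshold, while some counts of called members moved. Over all alternatives, 1144 differences of named members kept direction and call, 56 lost the call and 0 changed direction. These members were picked by moderated t among the called ones, so the tally favours members far from the threshold. Leaving out an array of a population outside the comparison also leaves the difference itself unchanged. Between ALs and ALPs, where 18 members were called, fitting the 2 populations alone called 6 and Student's t-test 0. Between ALPs and LPs, where 27 were called, these gave 2 and 0. Fitting the 2 populations alone called 15 members between LPs and MLs (8 otherwise) and 12 between MaSCs and LPs (7 otherwise), and array weights called 11 between MaSCs and LPs. Selp between ALs and LPs lost its call under Student's t-test (adjusted p = 0.0902). With each array left out in turn, 11 to 27 members were called in ALs against ALPs, 12 to 24 in ALs against LPs, 18 to 26 in ALs against MLs, 17 to 29 in ALPs against LPs, 7 to 12 in LPs against MLs and 5 to 11 in MaSCs against LPs. The arrays that moved a count by over 1.5 times were AL replicate 1 in ALs against ALPs (11 without it), LP replicate 2 in ALPs against LPs (17) and ALP replicate 3 in MaSCs against LPs (11). The count of members with all marked arrays above all wildtype arrays was 19 to 20, an alternative chosen after seeing the data.

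Against ALP replicate 2 alone, replicate 3 was at least 4-fold higher in 12 members, where 24 were against the mean of both. The mean member level moved with the scale: with nothing added (floor of 1) it was 7.87 in ALs, 5.74 in MaSCs, 6.07 in LPs and 5.29 in MLs, against 8.04, 6.24, 6.57 and 5.96. Over the 24 members that passed the brightness filter it was 8.74 in ALs, 6.53 in MaSCs, 7.005 in LPs and 6.19 in MLs, and with the mean of all probe sets 7.59, 5.95, 6.29 and 5.77 in this order. In MLs it was 6.06 after quantile normalisation and 6.15 after median centring. The 9 members that failed the filter were Cdh5, Pecam1, Tie1, Erg, Lyve1, S1pr1, Nos3, Rasip1 and Tal1, and for them differences between dim arrays are the least certain. Of 39 called differences of the 13 members with several probe sets, 30 had the same direction in every probe set, and the exceptions were those of Cd93, Ednrb, Ptprb and Calcrl.

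The labels number the replicates, but no source says that a number marks one of the 3 shared suspensions. Deviations of same-numbered arrays correlated between -0.018 and 0.155 over MaSCs, LPs and MLs, and in 11 of 18 cases an array correlated best with its own number in another of these populations. With the replicate number as a block, 13 members were called between MaSCs and LPs (7 without it), 11 between LPs and MLs, 19 between ALs and LPs, 21 between ALs and MLs, 19 between ALs and ALPs and 25 between ALPs and LPs. The cause of these changes was not tested.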

Other observations

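Genes of endothelial identity outside the 33 members gave further values, and those named here were picked after their values were seen. In each of the lists of endothelial transcription and Notch and of other endothelial genes, 3 of 21 genes had all marked arrays above all wildtype arrays. So had 2 of 8 mural genes, against 0.857% of all genes. The trait was not particular to vessel genes, since 6 of 10 leukocyte and 2 of 9 macrophage markers had it too. It held for 1 of 27 ligands and partners, and for 0 of the platelet, erythroid, fibroblast, adipocyte and epithelial markers. Sox17, a transcription factor of arterial endothelium, read 139, 168 and 118 in ALs and 169, 198 and 2188 in ALPs, and did not exceed 33.5 in any wildtype array. Adgrl4, an adhesion receptor of growing vessels, read 102, 179 and 207 in ALs and 266, 349.7 and 2542 in ALPs, and did not exceed 19.4 in any wildtype array. Robo4, a guidance receptor of endothelium, read 98.5, 168 and 142 in ALs and 122, 263 and 1578 in ALPs, against at most 25.5 in the wildtype arrays. Ackr1, the chemokine-binding receptor of venules, read 346, 479 and 724 in ALs and 1404, 4046 and 7164 in ALPs, against 30.7 to 51.4 in MaSCs, 193, 291 and 475.5 in LPs and 21.0 to 28.5 in MLs. Ackr1 thus overlapped between ALs and LPs, unlike the other 3 genes.

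Rgs5, a marker of pericytes, read 1000, 1074 and 1151 in ALs and 1844, 2476 and 6973 in ALPs, against 504, 665 and 731 in MaSCs, 16.4 to 64.2 in LPs and 13.0 to 34.4 in MLs. Its marked arrays lay above all wildtype arrays, and MaSCs held a level of their own.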
